A study of Mus musculus with 17 samples.

Results

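The 10 genes described here belong to the cyclic AMP (cAMP) and CREB axis of skeletal muscle: Creb1, Crtc2, Crem, Sik1, Nr4a2, Nr4a3, Ppargc1a (which encodes PGC-1alpha), Lpin1, Pde4b and Pde4d. They were taken by gene symbol from a table of 36172 rows, each symbol matched 1 row, and all 10 were among the 13965 genes that passed the filter on low counts. RNA of the extensor digitorum longus (EDL), a fast muscle of the lower leg, was sequenced from 17 aged mice. The group labelled Hand2, for a transcription factor of sympathetic neurons, held 7 animals (3 males, 4 females). The group labelled as empty vector held 10 animals (5 males, 5 females). In the Hand2 group 3 animals were 23 months old and 4 were 22 months old, and in the empty-vector group 7 were 23 months and 3 were 22 months old. Strain, promoter, route and time of vector delivery are not given in the labels. The series title names sympathetic neurons and muscle loss in ageing as its subject.

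Noradrenaline released by sympathetic nerves acts on beta-adrenergic receptors of muscle fibres and raises cAMP, which activates protein kinase A. The kinase phosphorylates the transcription factor CREB1, and the coactivator CRTC2 moves to the nucleus and binds CREB1 at cAMP response elements of target genes. Among the targets are brakes on the same signal: CREM repressor isoforms, the kinase SIK1 that holds CRTC2 in the cytoplasm, and the cAMP-degrading phosphodiesterases. Others encode effectors of muscle metabolism, such as the NR4A orphan nuclear receptors and PGC-1alpha, the coactivator that drives mitochondrial gene programmes.

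Promoter sequence of the members is shown because the rule that groups these genes is their place in the CREB axis, and CREB binds the palindrome TGACGTCA or its core TGACG. RefSeq promoter sequences of build GRCm38.p6, covering 250 bases before to 50 after each start, were given for 7 of the 10 members (Ppargc1a, Nr4a3, Nr4a2, Pde4b, Pde4d, Lpin1 and Creb1). The RefSeq start matched the first base of the locus in the deposited table for Nr4a2, Pde4d and Creb1. It lay 13.8 kb upstream of that base for Ppargc1a, 5.94 kb upstream for Nr4a3 and 21.2 kb upstream for Lpin1, and the 4 RefSeq starts of Pde4b lay 167 to 335 kb downstream, so the first base of these 4 loci was not searched. Both strands were searched, so the core appears as TGACG or as CGTCA, and a palindrome would also count as 2 overlapping cores. The core was found in 4 of the 7 genes, and the palindrome TGACGTCA in 0 of 7. Counted the same way over 27025 genes, 23.0% held the core and 2.03% held the palindrome in at least 1 window, and of all 32851 windows 20.8% held the core and 1.79% the palindrome. The stretches around the cores are given 5′ to 3′ on the gene's strand with the core in capitals: Ppargc1a at chr5:51567755-51567789 (minus strand), Nr4a3 at chr4:48045059-48045177 (plus strand), Nr4a2 at chr2:57124095-57124218 (minus strand) and Pde4b at chr4:102421506-102421540 (plus strand).
Ppargc1a: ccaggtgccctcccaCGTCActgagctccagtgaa
Nr4a3: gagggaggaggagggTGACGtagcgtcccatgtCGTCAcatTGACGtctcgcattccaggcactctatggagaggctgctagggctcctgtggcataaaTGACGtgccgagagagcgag
Nr4a2: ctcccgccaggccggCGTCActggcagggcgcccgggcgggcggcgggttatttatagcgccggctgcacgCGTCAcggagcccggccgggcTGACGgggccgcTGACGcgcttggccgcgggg
Pde4b: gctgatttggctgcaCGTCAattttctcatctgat
Nr4a3 and Nr4a2 each held 4 cores in their window, while Ppargc1a held 1 and Pde4b held 1, in 1 of its 4 windows. Pde4d, Lpin1 and Creb1 held 0 in the windows given. A match describes letters in a window and not binding.

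The libraries matched their labels of vector and muscle, and the labels of sex and age were taken as given. Hand2 transcript lay between 1.02 and 26.3 CPM (estimated counts scaled to a common library size with trimmed mean of M values, TMM, factors) in Hand2 animals and between 0.0711 and 0.940 CPM in empty-vector animals, with no overlap. The 12 defining fast-muscle genes summed to 116080 to 143426 CPM in Hand2 libraries and 116926 to 137522 CPM in empty-vector libraries. Total estimated counts ran from 19181208 to 30715990 in Hand2 libraries and from 22296800 to 30942818 in empty-vector libraries. Empty-vector replicates 3 and 4 stood apart in the summed level of 18 immediate-early genes, at 2342 and 1249 CPM, against 389 to 587 CPM in the 7 Hand2 animals and 368 to 619 CPM in the other 8 empty-vector animals. These 2 animals and empty-vector replicate 5 are the 3 empty-vector females of 23 months, and the only other female of that age is Hand2 replicate 5. Values without replicates 3 to 5 stand beside the results that they move. In bulk muscle RNA, fewer cells of a type and less RNA per cell cannot be told apart.

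Per kilobase of annotated exon, the 10 genes spanned a wide range of levels. Lpin1, whose product converts phosphatidate to diacylglycerol and also acts as a coactivator of PGC-1alpha, stood first at 61.2 CPM per kb (mean of 17 animals). Pde4d followed at 30.3 and Pde4b at 14.9 CPM per kb, and this order of the 3 genes held for Lpin1 over Pde4d and for Pde4d over Pde4b in 17 of 17 animals. Sik1 averaged 11.4 CPM per kb and Crtc2 8.37, although Sik1 exceeded Crtc2 in only 4 of 17 animals. Ppargc1a came next at 6.42 CPM per kb, then Crem at 2.66 and Creb1 at 1.42. The NR4A receptors stood last, with Nr4a3 at 0.900 and Nr4a2 at 0.639 CPM per kb. Along this order the ranges over animals were separate only between Ppargc1a and Crem and between Crem and Creb1. The receptor genes rested on few reads, with 25.5 to 606 estimated counts per library for Nr4a3 and 23.6 to 292 for Nr4a2.

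The main comparison asks whether muscle of Hand2 animals differed from that of empty-vector animals in these genes, with sex taken into account. None of the 10 members was called by edgeR's quasi-likelihood test at an adjusted p under 0.05, and the share called among all 13965 genes was 0%. Hand2 itself was thus not called either, although its ranges in the groups did not overlap, so a lack of calls does not show a lack of change. Fitted log2 fold changes were below 0 for 9 of 10 members, with a median of -0.21, where 51.7% of all genes were below 0 and their median was -0.0041. With empty-vector replicates 3 to 5 left out, 6 of 10 members were below 0 and the median was -0.018. At an unadjusted p under 0.05, edgeR listed 2 members, Crem and Sik1, against 5.05% of all genes (705 genes). By other tools the calls at an adjusted p under 0.05 were 1 gene in DESeq2, 0 in limma-voom and 0 in limma run on the values normalized by the authors, with 798, 844 and 649 genes at an unadjusted p under 0.05. The 2 groups overlapped in the range of every member, where ranges were separate for 0.0215% of all genes.

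**Figure D1:**
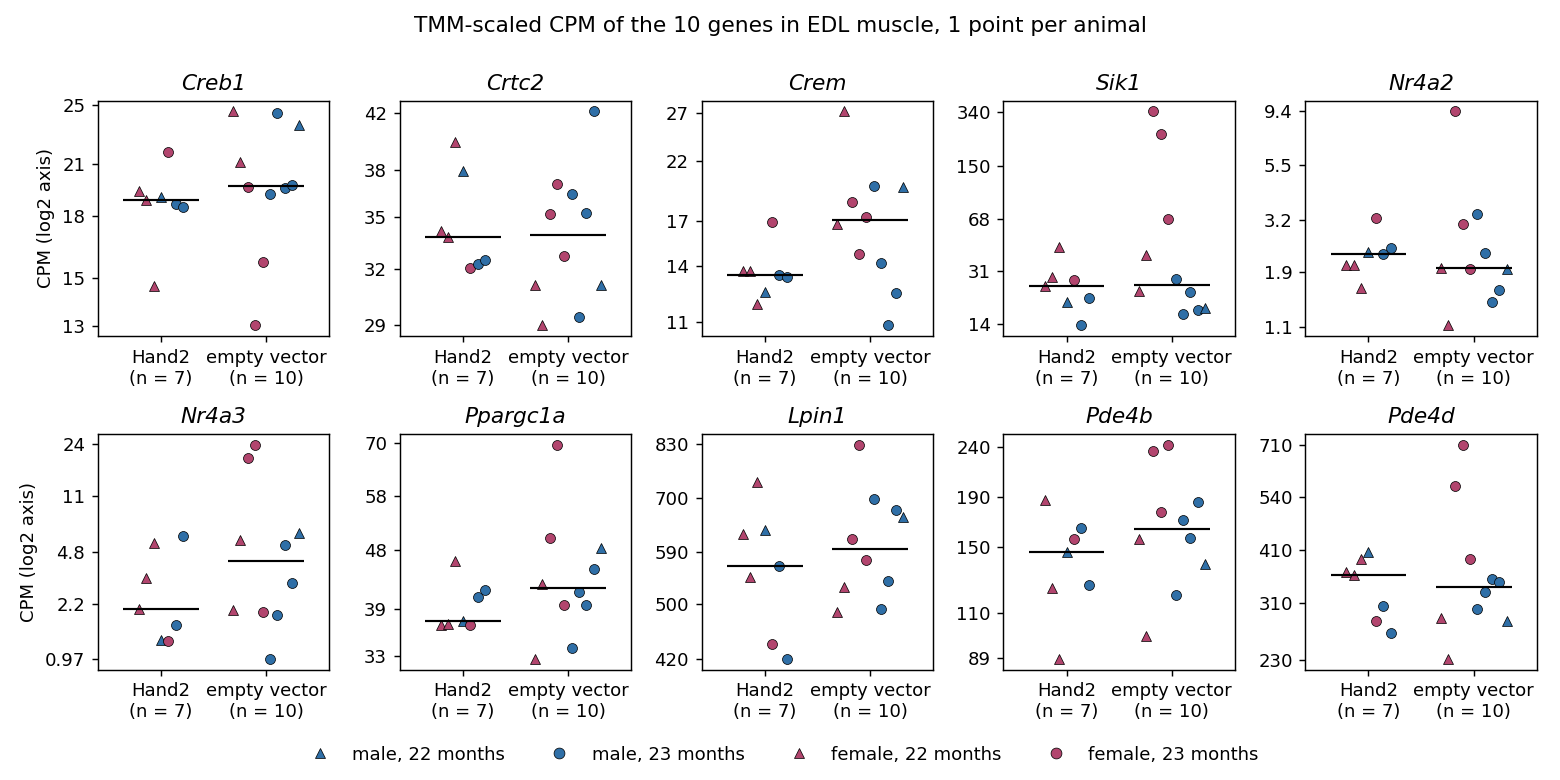
TMM-scaled CPM of the 10 genes on log2 axes, Hand2 animals left of empty-vector animals, 1 point per animal, coloured by sex and shaped by age, with a line at each group's median. The groups overlap in every panel, and 2 or 3 empty-vector females of 23 months stand above the other animals for Sik1, Nr4a3 and Pde4d, and 1 of them for Ppargc1a.

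Creb1 (Entrez gene 12912, chr1:64532804-64604548, plus strand, mm10), the transcription factor of the axis, measured 14.7 CPM at the lowest, 18.9 at the median and 21.8 at the highest in Hand2 animals, against 13.03, 19.7 and 24.6 CPM in empty-vector animals. The Hand2 range lay inside the empty-vector range, and the log2 fold change was -0.09 ± 0.11 (SE, 95% interval -0.32 to 0.14). Leaving out empty-vector replicates 3 to 5 gave -0.23 for Creb1 (edgeR p = 0.0206, adjusted p = 0.827). Among males the groups did not overlap: Hand2 males had 18.5, 18.6 and 19.1 CPM, against 19.2 to 24.4 CPM in the 5 empty-vector males. Such a separation in males was found for 2.63% of all genes, and the fitted difference for Creb1 in males was -0.19 ± 0.17 (edgeR adjusted p = 1.0).

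Crtc2 (chr3:90254281-90264125, plus strand), the coactivator, was the least variable member in both groups, with 32.03, 33.8 and 39.96 CPM (lowest, median, highest) in Hand2 animals and 29.0, 34.0 and 42.2 CPM in empty-vector animals. It was the 1 member with a fitted value above 0, at 0.03 ± 0.07 (SE, interval -0.12 to 0.19). Its spread over animals, as coefficient of variation (CV, SD as a percentage of the mean), was 8.91% in Hand2 and 12.0% in empty-vector animals.

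Crem (chromosome 18) encodes activators and, from an internal promoter, the inducible repressor ICER, which the row does not separate. It measured 11.9, 13.5 and 16.9 CPM (lowest, median, highest) in Hand2 animals and 10.8, 17.05 and 27.2 CPM in empty-vector animals. Of the 7 Hand2 animals 6 lay at or below 13.7 CPM and only Hand2 replicate 5, at 16.9 CPM, lay above, while 8 of the 10 empty-vector animals lay above 13.7 CPM. The mean was 13.6 ± 1.59 CPM in Hand2 animals (SD, n = 7) and 17.1 ± 4.62 CPM in empty-vector animals (SD, n = 10). The log2 fold change was -0.34 ± 0.14 (SE, interval -0.63 to -0.05), and edgeR gave p = 0.0238 before and 0.921 after adjustment. The exact permutation test of Crem, two-sided and on log2(CPM + 0.1), drew on 19448 splits and gave p = 0.0734. The fold change of Crem without empty-vector replicates 3 to 5 was -0.41 (edgeR p = 0.0207, adjusted p = 0.827).

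Sik1 (chr17:31844250-31855792, minus strand) had the widest spread of the members in empty-vector animals. In Hand2 animals it measured 13.7 CPM at the lowest, 24.9 at the median and 44.5 at the highest, against 16.1, 25.2 and 342 CPM in empty-vector animals. The medians of the groups were nearly equal, and the 3 highest values, 342, 244 and 67.7 CPM, belonged to empty-vector replicates 3, 4 and 5. Means were 25.5 ± 9.77 CPM with Hand2 (SD, n = 7) and 81.7 ± 115 CPM with the empty vector (SD, n = 10), or 23.4 ± 8.16 CPM without those 3 animals (SD, n = 7). The fitted log2 fold change was -1.26 ± 0.55 (SE, interval -2.44 to -0.07), with edgeR p = 0.0389 and adjusted p = 0.921. Leaving those 3 animals out gave -0.10, and the exact permutation test on all animals gave p = 0.256.

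Nr4a2 and Nr4a3 encode nuclear receptors that act without a known hormone and are induced early by exercise and beta-adrenergic agonists. Nr4a2 (chr2:57107226-57124003, minus strand) measured 1.62, 2.27 and 3.26 CPM (lowest, median, highest) in Hand2 animals and 1.12, 1.97 and 9.41 CPM in empty-vector animals. Its highest value, in empty-vector replicate 3, stood above the next at 3.38 CPM, and the fold change of -0.31 ± 0.36 (log2, SE) became 0.28 without replicates 3 to 5. Nr4a3 (chr4:48051248-48083352, plus strand) measured 1.26, 2.04 and 6.07 CPM in Hand2 animals and 0.974, 4.17 and 23.8 CPM in empty-vector animals. Empty-vector replicates 4 and 3 held 23.8 and 19.5 CPM, and no other animal exceeded 6.34 CPM. The log2 fold change of Nr4a3 was -1.11 ± 0.64 (SE, interval -2.46 to 0.25), and -0.28 without replicates 3 to 5.

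Ppargc1a (Entrez gene 19017, chr5:51454249-51553921, minus strand) varied little in Hand2 muscle, at 36.8 CPM at the lowest, 37.4 at the median and 46.2 at the highest, against 32.7, 41.9 and 69.6 CPM in empty-vector muscle. Only empty-vector replicate 4, at 69.6 CPM, stood clear of the other 16 animals, whose highest value was 50.03 CPM. Means were 39.5 ± 3.56 CPM in Hand2 animals (SD, n = 7) and 44.2 ± 10.5 CPM in empty-vector animals (SD, n = 10). The log2 fold change of -0.17 ± 0.12 (SE, interval -0.42 to 0.09) did not pass (edgeR adjusted p = 0.921), and was -0.01 without replicates 3 to 5. In this fit over all animals the interval bounds a fall in Hand2 muscle at 0.42 on the log2 scale. Fitted within a sex the intervals were wider, at -0.61 to 0.10 in females and -0.44 to 0.32 in males. The row sums transcripts from all starts of the gene, so its alternative-promoter isoforms are not separated.

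Lpin1 (chr12:16535669-16589770, minus strand) measured 420.0, 563 and 736 CPM (lowest, median, highest) in Hand2 animals and 488, 595 and 828 CPM in empty-vector animals. The groups overlapped over most of their range, and the log2 fold change was -0.11 ± 0.13 (SE, interval -0.38 to 0.16), or -0.025 without empty-vector replicates 3 to 5.

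Pde4b and Pde4d encode cAMP-specific phosphodiesterases. Pde4b (chr4:102254742-102607262, plus strand) measured 88.6, 147 and 187 CPM in Hand2 animals and 98.9, 163 and 242 CPM in empty-vector animals, with a log2 fold change of -0.25 ± 0.18 (SE) that was 0.00 without replicates 3 to 5. Pde4d (chr13:108654177-109955969, plus strand) measured 265, 359.5 and 406 CPM in Hand2 animals and 231, 337 and 711 CPM in empty-vector animals. Empty-vector replicates 4 and 3, at 711 and 573 CPM, were again the highest. The log2 fold change of Pde4d was -0.17 ± 0.19 (SE), and 0.18 without replicates 3 to 5.

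All 10 members reached their highest value in an empty-vector animal, as 61.5% of all genes did, and 6 of 10 in empty-vector replicate 3 or 4, as 12.2% of all genes did. Empty-vector replicate 4 held the maximum of Ppargc1a, Nr4a3, Pde4d and Lpin1, and replicate 3 that of Sik1 and Nr4a2. The CV was lower in Hand2 than in empty-vector animals for 9 of 10 members (all but Lpin1), against 57.9% of all genes. For Ppargc1a it was 9.02% with Hand2 and 23.7% with the empty vector. For Sik1 it was 38.3% with Hand2 and 140% with the empty vector, and for Crem 11.6% with Hand2 and 27.0% with the empty vector. The CV was lower with Hand2, once empty-vector replicates 3 to 5 were left out, for 4 of 10 members (Ppargc1a, Crem, Nr4a2 and Crtc2), against 48.9% of all genes. These counts are descriptions and were not tested. Leaving out replicates 3 to 5 removes the highest values of Sik1, Nr4a2, Ppargc1a, Nr4a3, Pde4d, Lpin1 and Pde4b, so it is no independent check. The summed immediate-early genes were also highest in replicates 3 and 4, and their part in these values was not tested.

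**Figure D2:**
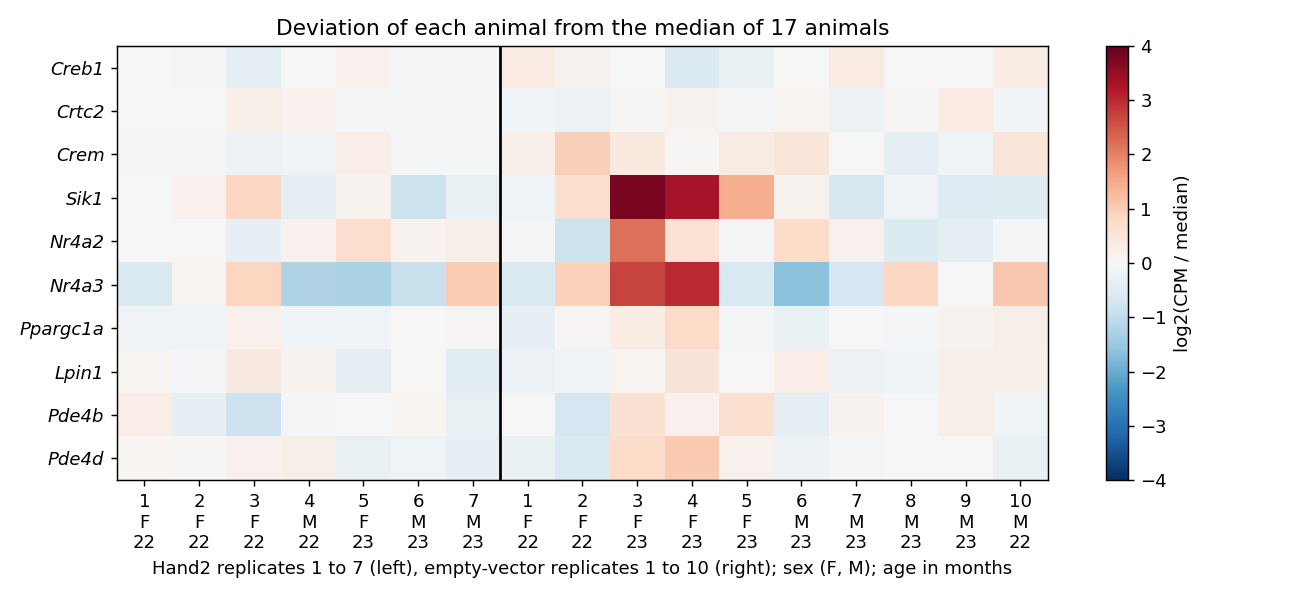
Heat map of log2(CPM / median of 17 animals) for the 10 genes (rows) in 7 Hand2 animals left of the line and 10 empty-vector animals right of it, with replicate number, sex and age in months under each column. Empty-vector replicates 3 and 4 are high for Sik1, Nr4a3 and Pde4d, and Crem is highest in empty-vector replicate 2.

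The vector effect was also fitted within each sex, and no member passed the test of a difference in that effect between the sexes. In females edgeR called 0 of 10 members (0% of all genes), and 3 members, Sik1, Crem and Nr4a3, had an unadjusted p under 0.05, against 5.9% of all genes (824 genes); DESeq2 called 7 genes there and limma-voom called 0. Sik1 measured 24.9, 27.2, 28.3 and 44.5 CPM in the 4 Hand2 females, against 22.8, 39.5, 67.7, 244 and 342 CPM in the 5 empty-vector females. The fitted difference in females was -2.20 ± 0.66 for Sik1 (log2, SE; edgeR p = 0.0049, adjusted p = 0.783), -1.79 ± 0.83 for Nr4a3 and -0.43 ± 0.19 for Crem. Without empty-vector replicates 3 to 5, which leaves 2 empty-vector females, the value was 0.00 for Sik1, -0.33 for Nr4a3 and -0.65 for Crem. Of the other members in females, Nr4a2 was at -0.67 ± 0.48, Pde4b at -0.39 ± 0.25, Pde4d at -0.33 ± 0.26 and Ppargc1a at -0.26 ± 0.17. All 4 turned sign with the same omission, to 0.50 for Nr4a2, 0.12 for Pde4b, 0.43 for Pde4d and 0.058 for Ppargc1a. Creb1 was at -0.01 ± 0.15, Lpin1 at -0.05 ± 0.18 and Crtc2 at 0.08 ± 0.10 over all females. In females 9 of 10 members were below 0, where 51.6% of all genes were. With that omission 3 of 10 were, where 49.7% of all genes were.

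In males edgeR called 0 of 10 members (0% of all genes), and none had an unadjusted p under 0.05, as 2.84% of all genes did (397 genes); DESeq2 called 1 gene and limma-voom called 0. Sik1 measured 13.7, 19.4 and 20.6 CPM in Hand2 males and 16.1 to 27.6 CPM in empty-vector males. Its fitted difference was -0.18 ± 0.70, that of Nr4a3 -0.25 ± 0.92, that of Crem -0.23 ± 0.21 and that of Ppargc1a -0.06 ± 0.18 (log2, SE). The difference between the sexes in the vector effect (male minus female) was tested as an interaction, and 0 of 10 members passed (0% of all genes). For Sik1 it was 2.02 ± 0.93 (SE, interval 0.02 to 4.01), the 1 member with an unadjusted p under 0.05 against 3.39% of all genes (edgeR p = 0.0476, adjusted p = 1.0; 474 genes, with 540 in DESeq2 and 658 in limma-voom, which called 0 each). The interaction was 1.54 ± 1.22 for Nr4a3, 0.20 ± 0.28 for Crem and 0.20 ± 0.25 for Ppargc1a. With empty-vector replicates 3 to 5 left out it was -0.18 for Sik1, 0.081 for Nr4a3, 0.42 for Crem and -0.12 for Ppargc1a, so the sign of Sik1 and of Ppargc1a turned.

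**Figure D3:**
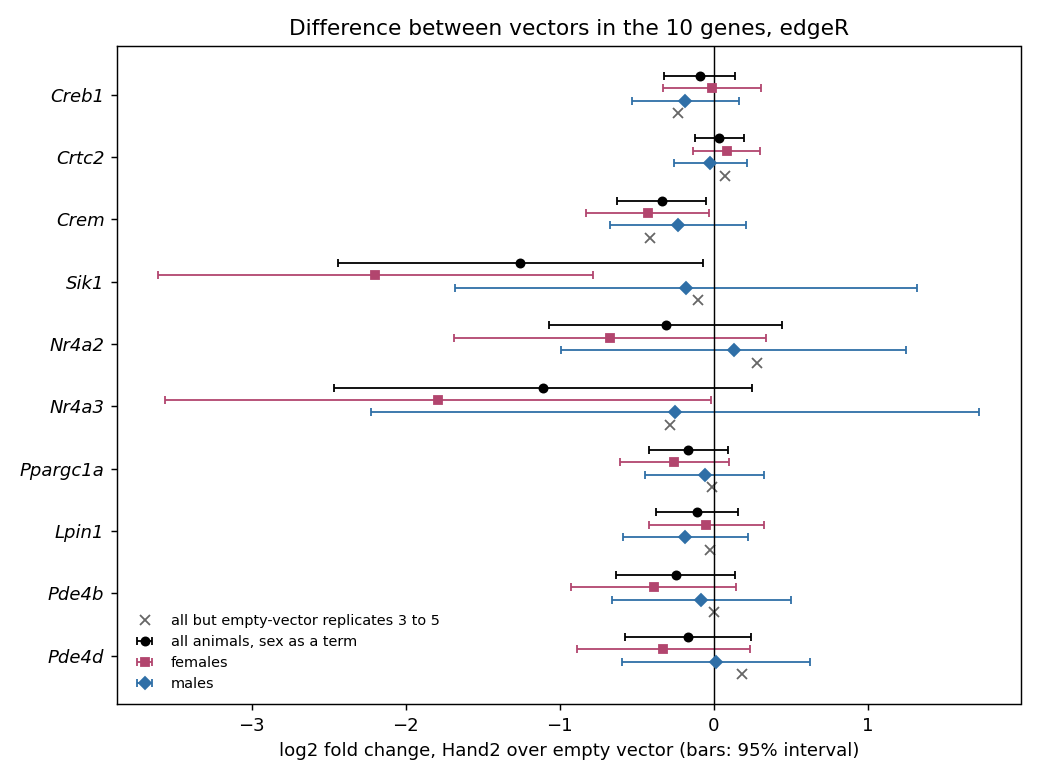
Fitted log2 fold change, Hand2 over empty vector, with 95% intervals from edgeR for the 10 genes in all animals (black circles), females (squares) and males (diamonds), and without empty-vector replicates 3 to 5 (crosses). The crosses lie near 0 for Sik1, Ppargc1a and Pde4b and at -0.41 for Crem.

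The comparison of males with females across both vectors gave the only call of edgeR among the members over all 17 animals. Sik1 was lower in males, and it was the 1 of 10 members called by edgeR, where 5.63% of all genes were called (2.91% as higher and 2.72% as lower in males). Males measured 13.7 CPM at the lowest, 18.6 at the median and 27.6 at the highest, against 22.8, 39.5 and 342 CPM in females. Of the 8 males 7 lay below the lowest female, and only empty-vector replicate 6, at 27.6 CPM, lay inside the female range. No member had separate ranges in the sexes, where 0.845% of all genes had. The mean was 19.4 ± 4.30 CPM in males (SD, n = 8) and 93.4 ± 117 CPM in females (SD, n = 9). The log2 fold change was -2.01 ± 0.55 (SE, interval -3.18 to -0.84; edgeR adjusted p = 0.0466), and the two-sided exact permutation test over 24310 splits gave p = 0.00189.

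That call lay close to the threshold. Without empty-vector replicates 3 to 5 the female mean was 31.2 ± 8.72 CPM (SD, n = 6) and the log2 fold change was -0.72 ± 0.19 (SE). The edgeR p was then 0.00169 before and 0.0650 after adjustment, against 0.0024 and 0.0466 over all 17 animals. Leaving out 1 animal at a time, the fold change ran from -2.14 to -1.61, and the call remained in 3 of 17 fits (those without empty-vector replicate 1, empty-vector replicate 2 or Hand2 replicate 5), with adjusted p from 0.0251 to 0.0940. Over the other 11 settings it remained in 6, and the adjusted p ran from 0.00187 in DESeq2 to 0.148 in the empty-vector animals alone, where the log2 fold change was -2.82. Summed levels of 12 glucocorticoid-induced genes ran from 1085 to 3583 CPM in males and from 1313 to 6061 CPM in females, and those of 18 immediate-early genes from 368 to 587 CPM in males and from 382 to 2342 CPM in females. In males 12 of 12 glucocorticoid-induced and 18 of 18 immediate-early genes were lower, where 49.9% of all genes were. Of them edgeR called 4 and 3 as lower, against 2.72% of all genes. With empty-vector replicates 3 to 5 left out, the genes lower in males were 12 of 12 and 14 of 17, with 0 and 1 called. Markers of slow fibres fell in males for 8 of 8 genes, with sums of 155 to 350.2 CPM in males and 304 to 1479.5 CPM in females. The same omission left 7 of these 8 called. The part of these lists in the Sik1 result was not tested.

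The other 9 members did not differ between the sexes past the threshold, with edgeR adjusted p from 0.363 for Nr4a3 (-1.01 ± 0.61, log2 and SE) to 0.879 for Lpin1 (-0.04 ± 0.12). Nr4a3 measured 0.974, 2.45 and 6.34 CPM (lowest, median, highest) in males and 1.26, 3.27 and 23.8 CPM in females. The values were -0.41 ± 0.35 for Nr4a2, -0.31 ± 0.19 for Pde4d, -0.22 ± 0.13 for Crem, -0.11 ± 0.18 for Pde4b and -0.09 ± 0.12 for Ppargc1a. Creb1 and Crtc2 had small values above 0, at 0.11 ± 0.11 and 0.03 ± 0.07. Leaving out empty-vector replicates 3 to 5 gave -0.091 for Nr4a3 and -0.30 for Crem. It turned the sign for Nr4a2 (0.24), Pde4d (0.080), Pde4b (0.16), Ppargc1a (0.077), Lpin1 (0.051) and Creb1 (-0.047). For Ppargc1a the interval of -0.34 to 0.16 bounds the difference in either direction.

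Within each age the vector effect took different signs for several members, a comparison chosen after the values were seen. Pde4d measured 265, 282 and 305 CPM in the 3 Hand2 animals of 23 months, against 301 to 711 CPM in the 7 empty-vector animals of that age. At 22 months the order was the other way, with 359.5 to 406 CPM in the 4 Hand2 animals and 231, 282 and 287 CPM in the 3 empty-vector animals. Fitted within age, the log2 difference of Pde4d was -0.48 ± 0.20 at 23 months (edgeR adjusted p = 0.606) and 0.52 ± 0.08 at 22 months (edgeR adjusted p = 0.122). The difference of the vector effect (23 minus 22 months, with sex as a term) was -1.02 ± 0.31 (SE, interval -1.68 to -0.35; edgeR adjusted p = 0.129). DESeq2 called it (adjusted p = 0.0182), limma-voom did not (adjusted p = 0.0790), and without empty-vector replicates 3 to 5 it was -0.71 and passed in edgeR (adjusted p = 0.0450).

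**Figure D4:**
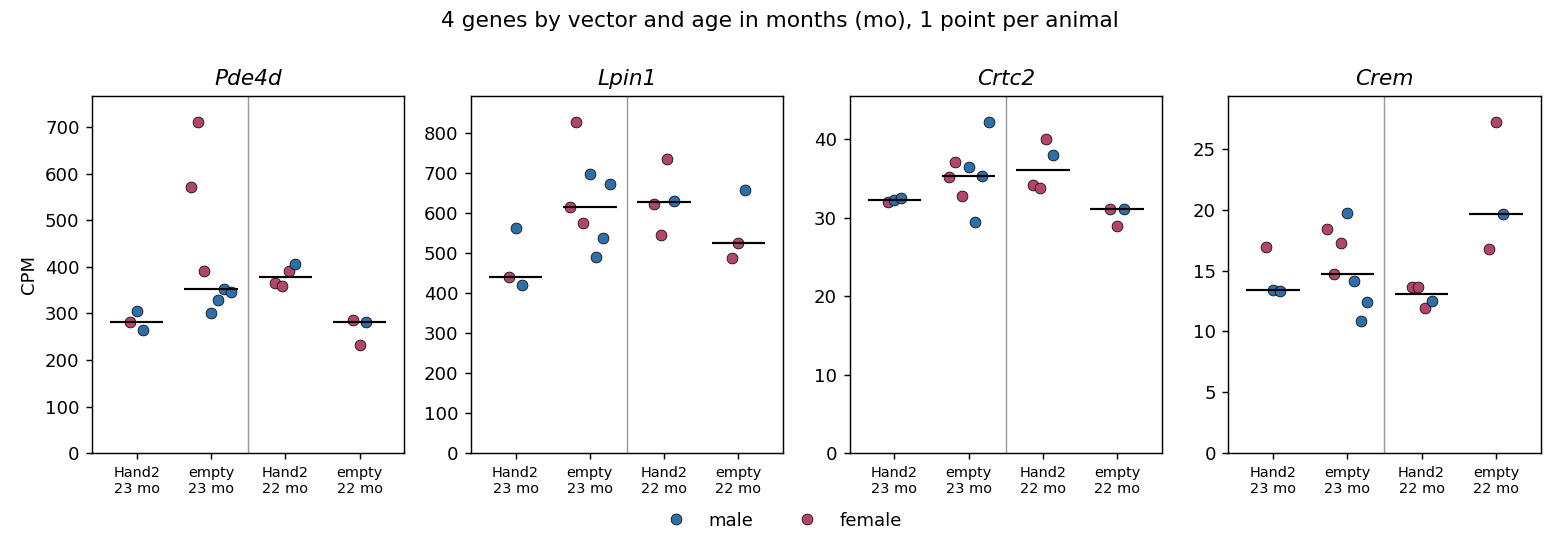
CPM of Pde4d, Lpin1, Crtc2 and Crem by vector and age, Hand2 left of the empty vector within each age and 23 months left of 22 months, 1 point per animal coloured by sex, with a line at each median. At 22 months the Hand2 animals lie above the empty-vector animals for Pde4d and Crtc2 and below them for Crem, with no overlap.

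Lpin1 and Crtc2 had the same sign pattern as Pde4d. Lpin1 measured 420.0, 440.2 and 563 CPM in Hand2 animals of 23 months and 492 to 828 CPM in empty-vector animals of that age, against 545 to 736 CPM in Hand2 and 488, 527 and 659 CPM in empty-vector animals of 22 months. Its effect differed between the ages by -0.60 ± 0.23 (log2, SE; edgeR adjusted p = 0.218). Crtc2 measured 32.03, 32.3 and 32.5 CPM in Hand2 animals of 23 months and 29.4 to 42.2 CPM with the empty vector, against 33.8 to 39.96 CPM in Hand2 and 29.0, 31.1 and 31.1 CPM in empty-vector animals of 22 months. That difference was -0.41 ± 0.13 (edgeR adjusted p = 0.137).

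Crem ran the other way. It measured 13.4, 13.5 and 16.9 CPM in Hand2 animals and 10.8 to 19.8 CPM in empty-vector animals of 23 months, against 11.9 to 13.7 CPM in Hand2 and 16.8, 19.6 and 27.2 CPM in empty-vector animals of 22 months. The vector effect on Crem was -0.06 at 23 months and -0.72 at 22 months, and the difference was 0.66 ± 0.24 (log2, SE; edgeR adjusted p = 0.180).

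In edgeR 0 of 10 members passed for this age difference, against 0.38% of all genes (53 genes), and 4 members (Pde4d, Crtc2, Crem and Lpin1) had an unadjusted p under 0.05, against 16.4% of all genes (2288 genes). DESeq2 called 560 genes in all, Pde4d the 1 member among them, and limma-voom called 151 genes and 0 members. The edgeR count moved between 0 genes (without empty-vector replicate 2, and without Hand2 replicate 5) and 156 genes (without empty-vector replicate 7) when 1 animal was left out, with 0 members called in each of the 17 fits. At 22 months the vectors did not overlap for 4 of 10 members (Pde4d, Crtc2, Crem and Creb1), and for 12.7% of all genes. At 23 months they did not overlap for 0 of 10 members, and for 2.66% of all genes. The 4 Hand2 animals of 22 months are also those whose titles lack a sex letter, so age and any difference that this title form marks cannot be told apart in the Hand2 group. Depth also split with age in that group. Total estimated counts were 19181208 to 22051694 at 23 months and 25410180 to 30715990 at 22 months, and the part of depth was not tested.

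Members were compared with each other over the 17 animals, 45 pairs in all, on log2 CPM. After Benjamini-Hochberg adjustment over the 45 pairs, 2 pairs passed for both Pearson's r and Spearman's rho. Ppargc1a and Nr4a3 varied together, with r = 0.84 (permutation p = 2e-05, adjusted 0.0009) and rho = 0.78 (permutation p = 0.00034, adjusted 0.0153). Without the 2 animals farthest from the median of Ppargc1a r was 0.80. It was 0.71 in males and 0.89 in females, 0.86 at 23 and 0.83 at 22 months, 0.69 in Hand2 and 0.86 in empty-vector animals, and 0.82 after the 4 vector-by-sex means were removed. Without empty-vector replicates 3 to 5 r was 0.69 (permutation p = 0.007, adjusted 0.063).

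**Figure D5:**
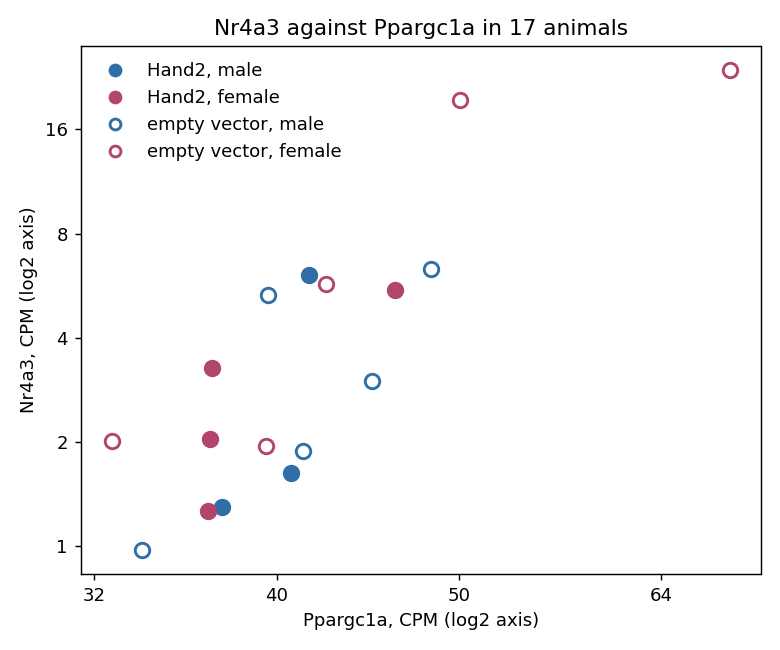
Nr4a3 against Ppargc1a in CPM on log2 axes, 1 point per animal, filled for Hand2 and open for the empty vector, coloured by sex. The 2 animals at the upper right are empty-vector replicates 3 and 4, and the other 15 animals also run from lower left to upper right.

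Lpin1 and Crtc2 were the other pair, with r = 0.66 (permutation p = 0.00399, adjusted 0.0449) and rho = 0.70 (permutation p = 0.0023, adjusted 0.0477). The r was 0.70 without the 2 animals farthest from the median of Lpin1, 0.55 in males and 0.80 in females, 0.70 at 23 and 0.71 at 22 months, and 0.83 in Hand2 and 0.67 in empty-vector animals. Without empty-vector replicates 3 to 5 it was 0.66, with an adjusted p of 0.0674 by permutation.

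Sik1 gave high values of r that rested on few animals. With Pde4d it gave r = 0.77 and rho = 0.42, and with Nr4a3 r = 0.71 and rho = 0.37 (permutation p = 0.00231 and 0.00302 for r, adjusted 0.0449 each; 0.0988 and 0.146 for rho, adjusted 0.445 and 0.470). Without the 2 animals farthest from the median of Sik1, which are empty-vector replicates 3 and 4, r was 0.18 with Pde4d and 0.11 with Nr4a3. In males r was -0.02 with Pde4d and -0.04 with Nr4a3, against 0.84 and 0.87 in females. Pde4d and Crtc2 passed for rho alone, with rho = 0.69 (permutation p = 0.00318, adjusted 0.0477) and r = 0.53 (permutation p = 0.0284, adjusted 0.0798). Over all 45 pairs r was above 0 for 32, with a median of 0.19.

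For each member the gene whose animal-to-animal pattern was most like it was found by Pearson's r after removal of the 4 vector-by-sex means, over 17 animals, among 12154 genes with a mean of at least 1 CPM. For Sik1 it was Nfil3, a transcription factor gene (r = 0.97), then Csrnp1 (0.96) and Zfp36, which encodes an mRNA-destabilizing protein (0.93). In males r of Sik1 was 0.67 with Nfil3, 0.53 with Csrnp1 and -0.02 with Zfp36, against 0.99, 0.98 and 0.93 in females. For Ppargc1a it was the histone demethylase gene Kdm4a (0.90; 0.19 in males and 0.96 in females), and next Ppp1r12b, which encodes a myosin phosphatase subunit (0.89; 0.79 in males and 0.92 in females). Nr4a2 was most like Hes1, a Notch target gene (0.90), Ier2, an immediate-early gene (0.88), and Gem (0.88). Pde4d was most like Sertad2 (0.97) and the nuclear receptor corepressor gene Nrip1 (0.94). Crem was most like Bex1 and Tceal5 (0.90 each), at 0.96 and 0.89 in males and 0.86 and 0.95 in females. The best match was Nudt9 for Nr4a3 (0.87), Pllp for Pde4b (0.89), Pi4k2a for Lpin1 (0.92), Atg16l2 for Creb1 (0.95) and E4f1 for Crtc2 (0.90). In the same order r was 0.92, 0.92, 0.84, 0.58 and 0.87 in males, and 0.79, 0.81, 0.93, 0.97 and 0.85 in females. Before the means were removed, r of Nr4a3 with Nudt9 over 17 animals was 0.42. These values share the libraries and are descriptions.

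Other genes of the axis were read from the same fits. Of the genes for receptors, G proteins and adenylyl cyclases, 17 of 19 listed were measured, and 0 were called between vectors, with 10 higher and 7 lower in Hand2 animals. The lowest p in that list was that of Gnal, a stimulatory G protein subunit gene, at -0.65 ± 0.19 (log2, SE; edgeR adjusted p = 0.921). Of protein kinase A subunits, anchors and other cAMP effectors, 0 of 15 measured were called, with 3 higher and 12 lower. Over all genes 51.7% were lower. Of 14 other phosphodiesterase-list genes 0 were called, with 6 higher and 8 lower, among them Pde1a at 0.49 ± 0.18. Of 13 genes of the CREB family, its coactivators and kinases 0 were called, with 6 higher and 7 lower. None of these lists held a call without empty-vector replicates 3 to 5 either. The first list then had 7 higher and 10 lower, and the protein kinase A and effector list 6 higher and 9 lower. The phosphodiesterase list had 8 higher and 6 lower and the CREB family 9 higher and 4 lower, where 50.1% of all genes were lower.

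Other CREB targets outside the members also gave no call between vectors (0 of 15 measured), but 13 were lower and 2 higher in Hand2 animals, with a median log2 fold change of -0.50, where 51.7% of all genes were lower. Without empty-vector replicates 3 to 5 7 were lower and 8 higher, with a median of 0.21. In males 11 of 15 were higher in Hand2 animals with a median of 0.15, and in females 14 of 15 were lower with a median of -0.82, or 7 of 15 with a median of 0.054 without those 3 animals. Their summed level was 499 to 809.7 CPM in Hand2 animals and 387 to 3531 CPM in empty-vector animals, of which replicates 3 and 4 held 3531 and 2034 CPM and no other animal exceeded 851 CPM. Fos, Fosb, Junb and Egr1 of this list were also counted among the immediate-early genes, and Per1 among the glucocorticoid-induced genes. Among partners and targets of PGC-1alpha 0 of 28 measured were called, with 13 higher and 15 lower and a median of -0.02. Mfn2, a mitochondrial fusion gene of that list, was at 0.10 ± 0.04 and Vegfa at -0.31 ± 0.15. Of 8 genes of the lipin and glycerolipid list 0 were called, with 3 higher and 5 lower.

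Between the sexes edgeR called some of these genes. Among the phosphodiesterase genes Pde4a, a relative of the members Pde4b and Pde4d, rose in males by 0.45 ± 0.08 (log2, SE; edgeR adjusted p = 0.00256), with 95.4 ± 8.06 CPM in males (SD, n = 8) and 69.9 ± 10.1 CPM in females (SD, n = 9). Pde7a fell by 0.50 ± 0.09 (edgeR adjusted p = 0.0025), with 55.5 ± 4.78 CPM in males and 78.5 ± 12.4 CPM in females. Pde4dip, which encodes a protein that anchors PDE4D and is no phosphodiesterase, fell by 0.14 ± 0.04 (edgeR adjusted p = 0.0375). The adenylyl cyclase gene Adcy6 rose by 0.23 ± 0.05 and the catalytic kinase subunit gene Prkacb by 0.23 ± 0.06 (edgeR adjusted p = 0.00787 and 0.0382).

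Adrb3, Prkar2b and Pck1, which adipocytes express, fell in males by 2.73 ± 0.64, 0.82 ± 0.22 and 1.64 ± 0.27 (log2, SE; edgeR adjusted p = 0.0178, 0.0338 and 0.00114). Adrb3 was near the limit of detection, with 0 to 0.258 CPM in males and 0.129 to 1.49 CPM in females. White adipocyte markers fell in males for 5 of 8 genes, where edgeR called 2.72% of all genes as lower in males. Without empty-vector replicates 3 to 5 it called 1 of 8, with 7 of 8 below 0 and a median of -1.35. Sums of the 8 markers were 434 to 879.5 CPM in males and 500.4 to 1459.8 CPM in females. The part of these markers in the values of Adrb3, Prkar2b and Pck1 was not tested. Of the PGC-1alpha list, Sirt3 rose by 0.24 ± 0.06 and Ppard fell by 0.35 ± 0.06 in males (edgeR adjusted p = 0.0306 and 0.00191), and the other 26 did not pass. With empty-vector replicates 3 to 5 left out, edgeR still called Pde4a, Pde7a, Pck1, Adrb3 and Ppard (adjusted p = 0.0191, 0.0159, 0.00866, 0.0292 and 0.00379). It no longer called Pde4dip, Adcy6, Prkacb, Prkar2b and Sirt3 (adjusted p = 0.246, 0.0815, 0.0722, 0.0811 and 0.122).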

How the data were processed

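RNA of EDL muscle was sequenced from 7 Hand2 and 10 empty-vector mice after Illumina TruSeq preparation, per the labels' protocols. The build was mm10, per the submitters' processing notes. The sources used here name no aligner, counter or strand setting. The authors deposited estimated counts per gene locus, not scaled for depth (25.5% to 29.3% of values above 0 were whole within 0.001), and normalized log2 values, used as an alternative only.

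Each library is 1 animal by its labels, grouped by vector, and replicate numbers follow accession order. Estimated counts were rounded, filtered by filterByExpr on vector and sex, and scaled by TMM. The main test was the quasi-likelihood F test of edgeR 4.0.16 under R 4.3.3, in its robust form, adjusted by Benjamini-Hochberg over 13965 genes. Vector and sex were terms of 1 model, while values within a sex and the interaction used 4 vector-by-sex groups. SE is the size of the change divided by the root of F. CPM are TMM-scaled. Intervals are 95%. Exact tests used log2(CPM + 0.1), and correlations used 100000 permutations. Alternatives were DESeq2 1.42.0, limma 3.58.1 (voom with quality weights, and on the authors' log2 values), other scalings and filters, age, no vector or sex term, and leaving out animals. Exon lengths came from GENCODE vM21.

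The members and gene lists were chosen with earlier results of these data known. Named were all members, the smallest p per list in each direction, and the 3 genes most like each member; the text names part of these. The fits were tested on simulated counts that held no outlying animals, so that test does not cover genes such as Sik1 and Nr4a3. Intervals are for the fitted difference, with an error taken from the spread between these animals.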

Additional observations from a re-analysis of the deposited data

Results flagged for a closer look

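The highest or lowest value of each member was compared with the rest of its group in 20 groups, 10 members in Hand2 and in empty-vector animals, by Dixon's criterion, and chance marks about 1 in 20 groups. Crem in Hand2 animals had its highest value, 16.9 CPM, in replicate 5, apart from the other 6 Hand2 animals at 11.9 to 13.7 CPM. Ppargc1a in empty-vector animals had its highest value, 69.6 CPM, in replicate 4. Nr4a2 in empty-vector animals had its highest value, 9.41 CPM, in replicate 3.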

How the results depend on the processing

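Every comparison of Hand2 with empty-vector animals, over all animals, within a sex and as an interaction, called 0 of 10 members under each alternative. Of 1066 member values under alternatives, which do not cover every member in every comparison, 1009 kept direction and side of the threshold. Of the same values 36 changed sign, with adjusted p from 0.122 to 1.0. The cause of these changes was not tested. Between Hand2 and empty-vector animals, log2 values of opposite sign arose at 22 months alone for Nr4a2 (0.26), Pde4b (0.066), Lpin1 (0.21), Pde4d (0.52) and Sik1 (0.079). At 23 months alone they arose for Creb1 (0.062) and Crtc2 (-0.14). Without empty-vector replicates 3 to 5 they were 0.28 for Nr4a2, 0.0024 for Pde4b and 0.18 for Pde4d, and in females 0.50 for Nr4a2, 0.12 for Pde4b, 0.058 for Ppargc1a, 0.43 for Pde4d and 0.0024 for Sik1. The interaction there was -0.12 for Ppargc1a and -0.18 for Sik1. For males against females, the same omission gave -0.047 for Creb1, 0.24 for Nr4a2, 0.16 for Pde4b, 0.077 for Ppargc1a, 0.051 for Lpin1 and 0.080 for Pde4d, and the empty-vector animals alone gave 0.011 for Lpin1.

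Leaving out 1 animal at a time, Hand2 minus empty vector ran from -0.41 to 0.13 for Nr4a2 and from -0.0050 to 0.071 for Crtc2, with -0.90 to 0.13 for Nr4a2 in females and -1.26 to 0.12 for Nr4a3 in males. Male minus female ran from -0.52 to 0.072 for Nr4a2, from -0.15 to 0.019 for Ppargc1a, from -0.085 to 0.032 for Lpin1 and from -0.013 to 0.063 for Crtc2. The count of members called between the sexes was 0 in limma-voom, without a low-count filter, on the authors' normalized values, without empty-vector replicates 3 to 5 and in empty-vector animals alone, and ran from 0 to 1 over single omissions. All genes called between the sexes numbered 786, against 1276 in DESeq2, 291 without empty-vector replicates 3 to 5 and 118 in empty-vector animals alone. Upper-quartile scaling split them 514 higher and 270 lower in males, where the main scaling gave 406 higher and 380 lower. Pairs past the threshold for both r and rho numbered 0 without empty-vector replicates 3 to 5. For r alone 3 passed there by permutation, all negative: Sik1 with Pde4b (-0.77, adjusted 0.0324), Crem with Pde4d (-0.78, adjusted 0.0324) and Nr4a3 with Nr4a2 (-0.72, adjusted 0.0452), each with an adjusted p of 0.103 for rho. Over all 17 animals their r was 0.33, -0.29 and 0.25. The age difference called 1 member in DESeq2 and 1 without those 3 animals, both times Pde4d.

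No paired analysis was possible because the vectors share title numbers for few animals, and nothing in the labels says that a number marks a shared litter, batch or day. Low counts limit Nr4a2 and Nr4a3, and the 3 empty-vector females of 23 months have 1 Hand2 counterpart of that sex and age.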
